A study of Rattus norvegicus with 10 samples.

Results

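The addition of Aβ(1–42) oligomers to hippocampal slices treated with SKF was examined in RNA from the CA1 region, by comparing the 2 SKF+Aβ libraries with the 2 SKF libraries of a series of 10. The members are the protein-coding genes of these 4 libraries, of which 12503 of 16336 in the count table had enough counts to be tested. SKF slices received SKF alone, an agonist of the dopamine D1/D5 receptors, and SKF+Aβ slices received SKF with Aβ(1–42) oligomers at 200 nM. The other groups, used here as context, were CSP‐TTK21 without SKF or Aβ, then SKF+Aβ+CSP‐TTK21 and also SKF+Aβ+CSP, with 2 libraries each. CSP is a glucose-derived carbon nanosphere and TTK21 a small molecule that activates CBP and p300, which acetylate histones, and both particles were given at 0.36 µg/ml. All slices came from adult male Wistar rats of 5 to 7 weeks, were stimulated at baseline for 30 min and were collected 1 h after treatment. The methods describe each repeat as 2 slices from 2 biological samples, so a library may pool animals, and they do not tie replicate numbers to animals. The acute slice is a model of short exposure to an added peptide, not of an animal that makes it. No gene checks which slices received the added peptide, so the direction of every difference, those of Tgfb1 and Atf5 included, rests on the sample labels.

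Activation of D1/D5 receptors raises cAMP, which activates protein kinase A and the transcription factor CREB. CREB recruits CBP and p300 and switches on immediate early genes such as Fos, Arc and Egr1, which serve late plasticity at CA1 synapses. Soluble Aβ oligomers are known for weakening these synapses, for acting on glutamate receptors and for activating glia, whose NF-κB and STAT3 pathways induce cytokines together with their own inhibitors.

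Total counts were between 6753742 and 8473407 per library, and 3 counts correspond to between 0.354 and 0.444 CPM. Values below are normalized CPM, counts scaled to an equal library total that is adjusted by the TMM factors of edgeR, and fold changes are SKF+Aβ against SKF on the log2 scale. The chi-square of the counts of replicate libraries, divided by its degrees of freedom, was 12.1 for SKF and 8.70 for SKF+Aβ, where sampling of reads alone would give about 1. Mitochondrially encoded mRNAs took 3.58% and 5.52% of the counts in SKF and 6.20% and 5.91% in SKF+Aβ, so the ranges did not overlap. Among cell markers, Wfs1 of CA1 pyramidal cells was present in every library but uneven between replicates, at 137.4 and 230.7 CPM in SKF and 371.8 and 112.7 CPM in SKF+Aβ. Prox1 of dentate granule cells was also present in every library. Fibcd1 of CA1 and Cldn5 of endothelium were listed at 0 in all 10 libraries and check nothing here.

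Most of the genes that differed between SKF+Aβ and SKF differed by a small amount. At an adjusted p under 0.05, 266 of the 12503 tested protein-coding genes (2.13%) differed, with 151 higher (1.21%) and 115 lower (0.92%) in SKF+Aβ. The median log2 fold change was 0.76 among the higher genes and −0.79 among the lower genes, and 216 of the 266 changed by less than 1 on the log2 scale. With the fold limit of 1.5 on the log2 scale that the study's methods name, 6 genes (0.048%) remained, Mcts1 and Rnf138 higher and RT1-CE16, Pak2, Prr18 and the uncharacterized LOC100360491 lower. For all 266 genes the 2 groups did not overlap, which also held for 49.8% of the tested genes.

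The evidence for each gene is thin. The lowest adjusted p was 0.0186, for Mcts1, so no gene lay far from the threshold. Leaving out SKF+Aβ replicate 1 gave 0 calls. The count was 9 without SKF+Aβ replicate 2, 6 without SKF replicate 1, 143 without SKF replicate 2, and 22 without the one or the other library of SKF+Aβ+CSP. A fit of the 4 compared libraries alone called 9 genes, and DESeq2 called 739. Of the 266 genes, 0 stayed past the threshold in all 10 fits that left out a library. Gene lists are described below by their counts and medians, and of 44 lists the median of 21 changed sign when 1 of the 4 compared libraries was left out. As a background for counts in these lists, 23.2% of all tested genes had an unadjusted p under 0.05, and DESeq2 called 8.83% of the genes it tested. An exact permutation test of 2 libraries against 2 cannot reach a p under 0.05, so each call rests on the spread that edgeR estimates over genes and groups.

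**Figure D1:**
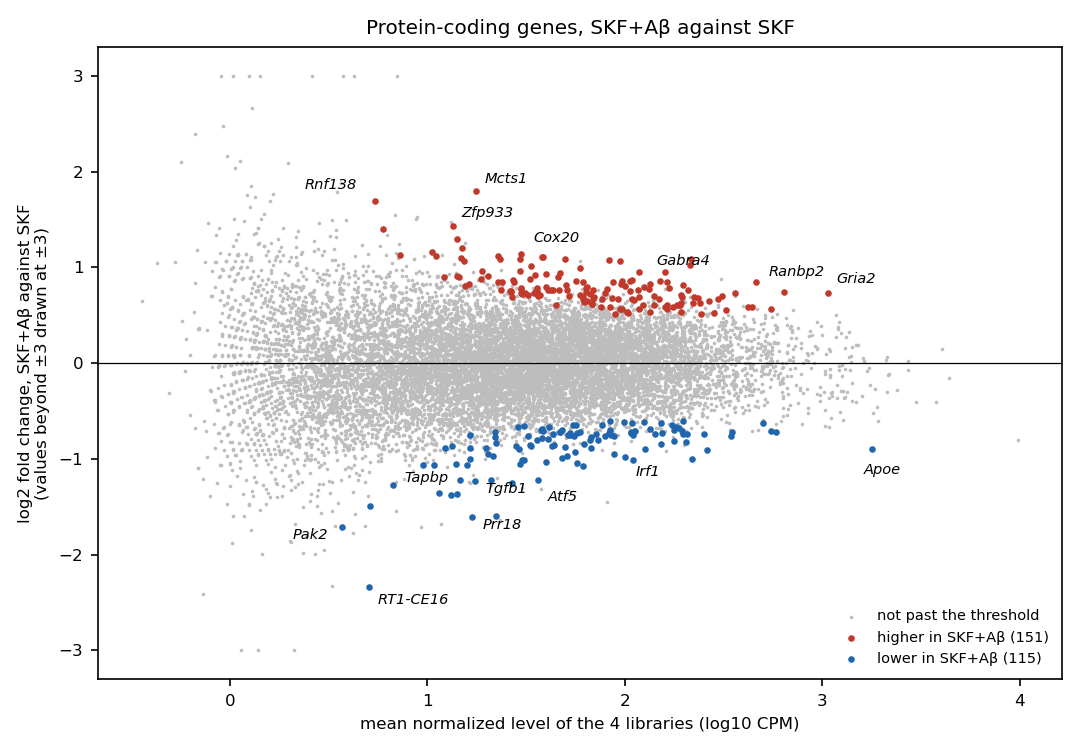
Log2 fold change of SKF+Aβ against SKF for each tested protein-coding gene, plotted against the mean normalized level of the 4 libraries on a log10 scale. Red points are the 151 genes higher and blue points the 115 genes lower in SKF+Aβ at an adjusted p under 0.05, grey points the other genes, and values beyond ±3 are drawn at ±3.

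Among the genes past the threshold, the largest fall was that of RT1-CE16, a rat class I gene of the major histocompatibility complex. It had 10.5 and 6.41 CPM in SKF and 1.82 and 1.49 CPM in SKF+Aβ. This is a 5.12-fold lower level in SKF+Aβ, with a log2 fold change of −2.34 ± 0.43 (SE, n = 2 per group) and an adjusted p of 0.0355. RT1-CE7, another class I gene, had 22.1 and 16.2 CPM in SKF and 8.66 and 5.96 CPM in SKF+Aβ (log2 fold change −1.38, adjusted p = 0.0497). Both SKF+Aβ libraries lay below both SKF libraries for each gene. Of 12 tested genes of the major histocompatibility complex, these 2 fell, 0 rose, and 6 had a fold change above 0 and 6 below 0 (median −0.20, and 0.06 without SKF+Aβ replicate 2). Class I genes of the rat have near-identical copies, and which of the named programs made the counts is not given, so reads may be split between copies and the single-gene values are uncertain. Tapbp, which encodes tapasin, the chaperone that loads peptides onto class I molecules, is not one of these class I genes. Its level was 23.5 and 19.4 CPM in SKF and 10.8 and 9.69 CPM in SKF+Aβ, a log2 fold change of −1.06 ± 0.21 (SE) with an adjusted p of 0.0355.

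Of 35 tested genes of interferon response and antigen presentation, these 3 fell, 0 rose, and 29 had a log2 fold change below 0 (median −0.52, against −0.02 for all tested protein-coding genes). Isg15, a ubiquitin-like interferon product, had 40 and 16 counts in SKF and 8 and 7 in SKF+Aβ without passing the test (adjusted p = 0.0839). Cd74, the invariant chain of class II, had 16 and 17 counts in SKF and 4 and 7 in SKF+Aβ (adjusted p = 0.124). RT1-N2 went the other way, with 0 counts in both SKF libraries and 130 and 66 in SKF+Aβ, but it was also at 0 in 1 library of SKF+Aβ+CSP and 1 of CSP‐TTK21 and did not pass (adjusted p = 0.0672). Without SKF replicate 1 the median of this list was −0.12 and 0 of its genes passed, as was also the case without either SKF+Aβ library, and the fit of the 4 libraries called 1 gene of the list higher and 0 lower.

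Of the transcription factors and feedback inhibitors of the NF-κB and STAT3 pathways, 4 fell with Aβ. Irf1, an interferon target that is itself a transcription factor, had 126.1 and 140.8 CPM in SKF and 72.8 and 62.2 CPM in SKF+Aβ (log2 fold change −0.98 ± 0.19 SE, adjusted p = 0.0355). Socs3, which blocks JAK and STAT3 signaling in a feedback loop, had 55.2 and 57.9 CPM in SKF and 29.3 and 33.1 CPM in SKF+Aβ (log2 fold change −0.86, adjusted p = 0.0454). In both genes the SKF libraries lay close together and above both SKF+Aβ libraries. Zc3h12a, a ribonuclease that degrades cytokine mRNAs, had 29.7 and 23.9 CPM in SKF and 12.9 and 14.9 CPM in SKF+Aβ (log2 fold change −0.95, adjusted p = 0.0359). Rela, the p65 subunit of NF-κB, had 68.8 and 69.4 CPM in SKF and 48.1 and 40.2 CPM in SKF+Aβ (log2 fold change −0.65, adjusted p = 0.0443). Of the 33 tested genes of this list these 4 fell and 0 rose, and 27 had a log2 fold change below 0, with a median of −0.65. Nfkbia, which encodes the inhibitor IκBα, had a log2 fold change of −0.69 (adjusted p = 0.0942) and Socs1 one of −1.22 (adjusted p = 0.0984), neither past the threshold. The median was −0.25 without SKF replicate 1, −0.72 without SKF replicate 2, and −0.76 and −0.49 without SKF+Aβ replicates 1 and 2. When only the 4 libraries were fitted, 0 of the list passed.

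The cytokines and chemokines themselves gave no call in 26 tested genes, and their median log2 fold change was −0.28, with 0.08 without SKF replicate 1 and −0.71 without SKF+Aβ replicate 1. Il6 had 32.9 and 17.4 CPM in SKF and 33.7 and 25.3 CPM in SKF+Aβ. Cxcl1, a neutrophil chemokine, had 189.0 and 36.5 CPM in SKF and 83.7 and 42.0 CPM in SKF+Aβ, so the replicates of SKF differed more than the groups. Ccl3 had 88.3 and 72.9 CPM in SKF and 43.3 and 54.9 CPM in SKF+Aβ, with no overlap between groups and an adjusted p of 0.0865. At an unadjusted p under 0.05, 4 of the 26 genes differed, and DESeq2 called 1 of the 26 lower, neither of which stands above the shares over all genes.

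**Figure D2:**
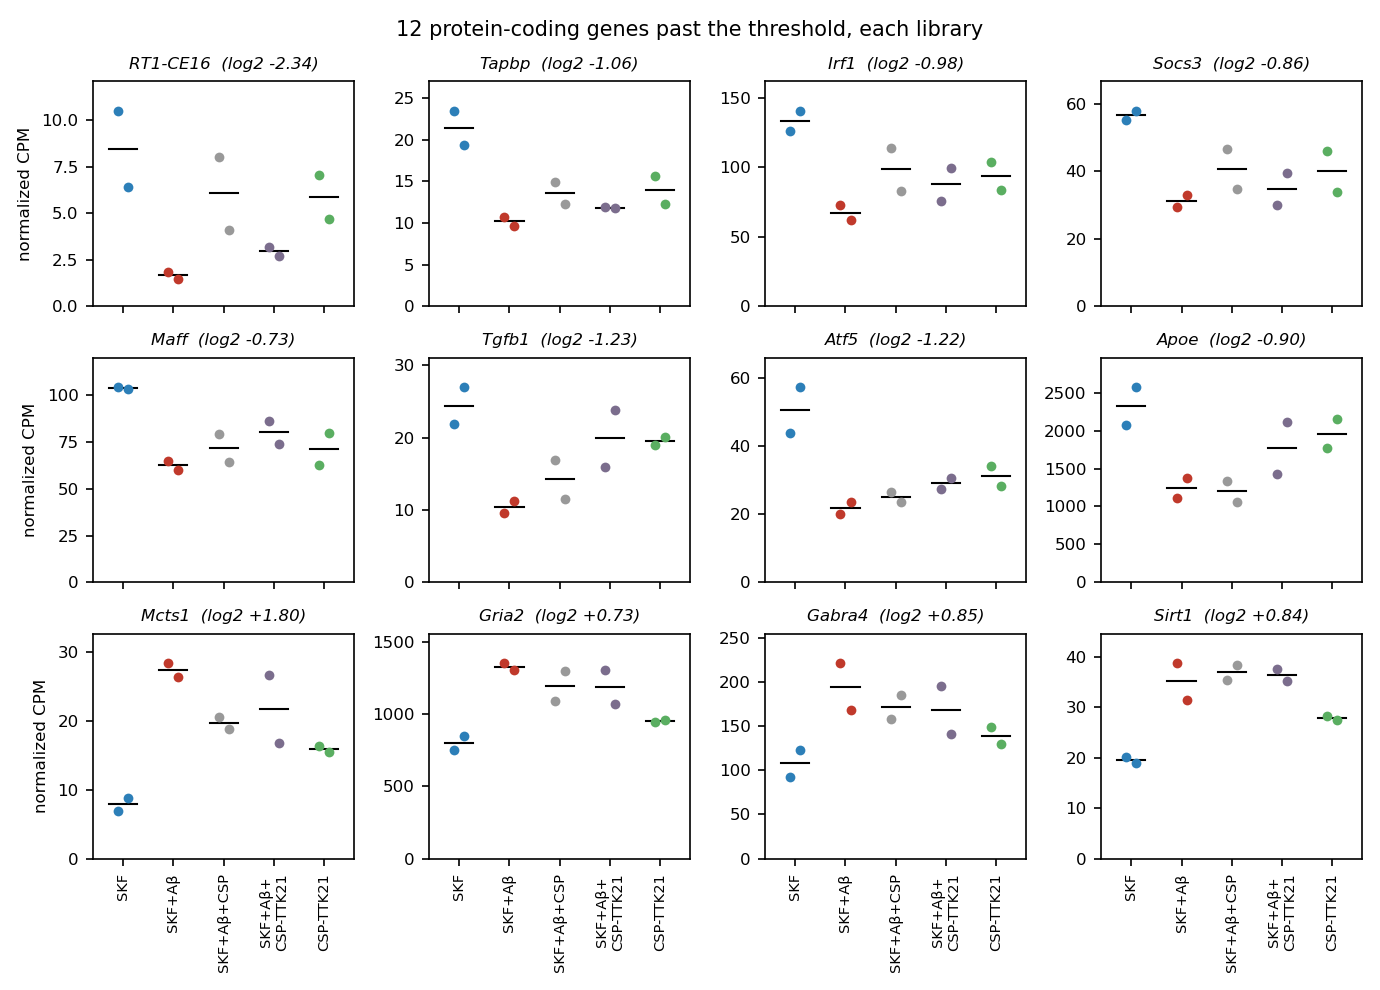
Normalized CPM (vertical axes, from 0) of 12 genes past the threshold in each of the 10 libraries, as points by group with a line at the mean of the 2 libraries. The first 8 genes are lower and the last 4 higher in SKF+Aβ than in SKF, and the 2 groups overlap in none of them.

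A list of immediate early transcription factors, part of the first wave of the response to D1/D5 receptor activation, gave 1 call. Maff, a small Maf transcription factor, was the 1 of 21 that fell, at 104.5 and 103.3 CPM in SKF and 65.0 and 60.2 CPM in SKF+Aβ (log2 fold change −0.73 ± 0.16 SE, adjusted p = 0.0416). A fold change below 0 was found in 19 of the 21, with a median of −0.46, and 7 had an unadjusted p under 0.05. Junb had a log2 fold change of −0.86 (adjusted p = 0.0808), Fos one of −0.71 (adjusted p = 0.183) and Egr1 one of −0.38 (adjusted p = 0.418). Fos had 489.4 and 598.7 CPM in SKF and 190.3 and 473.4 CPM in SKF+Aβ, so the SKF+Aβ libraries differed between themselves by more than 1 of them differed from SKF. Without SKF+Aβ replicate 1 the median of the list was −0.06. Among 23 activity-induced effectors 2 fell, Gadd45b and Pim1. Gadd45b, a stress and activity gene, had 136.2 and 131.6 CPM in SKF and 87.2 and 74.5 CPM in SKF+Aβ (log2 fold change −0.73, adjusted p = 0.0422). Pim1, a kinase that STAT factors induce, had 80.9 and 53.9 CPM in SKF and 35.5 and 33.2 CPM in SKF+Aβ (log2 fold change −0.97, adjusted p = 0.0491). Myc (log2 fold change −0.72) and Gadd45a (−0.76), which are outside both lists, also fell past the threshold. Arc (log2 fold change −0.45, adjusted p = 0.461), Homer1 (0.25, adjusted p = 0.470) and Bdnf (0.03, adjusted p = 0.963), which act at the synapse in late plasticity, did not pass.

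The promoters of 3 of these lower genes are printed because each holds an exact match to a motif of factors that acts in these pathways, namely STAT, CREB and the interferon regulatory factors. Each is the RefSeq window from 250 bases before to 50 bases after the gene start, in build GRCr8, with every match to the 3 motifs in capitals.
Irf1, chr10:38417685-38417984, plus strand, STAT (GAS) motif TTCNNNGAA: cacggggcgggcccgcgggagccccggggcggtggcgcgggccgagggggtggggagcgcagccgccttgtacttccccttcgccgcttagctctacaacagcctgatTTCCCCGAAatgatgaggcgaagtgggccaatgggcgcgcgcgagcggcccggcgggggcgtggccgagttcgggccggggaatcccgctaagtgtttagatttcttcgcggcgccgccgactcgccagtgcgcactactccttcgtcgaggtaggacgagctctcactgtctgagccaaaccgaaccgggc
Maff, chr7:112792537-112792836, plus strand, cAMP response element TGACGTCA, then the STAT (GAS) motif TTCNNNGAA: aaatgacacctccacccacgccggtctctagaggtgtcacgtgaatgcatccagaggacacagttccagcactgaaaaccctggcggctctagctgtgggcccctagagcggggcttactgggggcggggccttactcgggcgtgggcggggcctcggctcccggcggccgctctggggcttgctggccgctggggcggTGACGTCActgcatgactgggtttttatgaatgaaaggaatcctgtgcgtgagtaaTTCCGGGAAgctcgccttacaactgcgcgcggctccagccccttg
Tapbp, chr20:4967828-4968127, minus strand, interferon-stimulated response element, 2 overlapping matches: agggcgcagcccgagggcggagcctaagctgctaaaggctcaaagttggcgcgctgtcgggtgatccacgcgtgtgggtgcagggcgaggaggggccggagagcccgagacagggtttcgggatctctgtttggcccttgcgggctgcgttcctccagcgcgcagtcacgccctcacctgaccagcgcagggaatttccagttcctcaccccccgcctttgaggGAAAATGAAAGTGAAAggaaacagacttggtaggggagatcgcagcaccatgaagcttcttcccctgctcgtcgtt
Both strands were searched. The first motif lies in 6.54% of the promoters of all tested protein-coding genes, the second in 3.10% and the third in 2.86%, out of 10230 that could be matched by symbol. Of the promoters of genes lower in SKF+Aβ, 93 could be matched, and the 3 motifs lay in 5.38%, 2.15% and 2.15% of them. These shares are near those of all genes, so the matches describe the 3 genes printed and not the lower genes as a set. Of the 28 matched promoters of the interferon list, 46.4% held the interferon-stimulated response element, among them that of Tapbp. A match is a description of letters and was not tested for binding.

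In the signaling chain of the agonist itself, 1 of 30 tested rows passed. Ppp1r1b encodes DARPP-32, which protein kinase A turns into an inhibitor of protein phosphatase 1. It had 75.6 and 77.7 CPM in SKF and 36.9 and 37.4 CPM in SKF+Aβ (log2 fold change −1.04 ± 0.15 SE, adjusted p = 0.0230). The 2 libraries of each group almost coincided, and the call held when only the 4 libraries were fitted and in 7 of the 10 fits that left out a library, but not without SKF replicate 1 or without either SKF+Aβ library. Ppp1r1b is also one of the markers of striatum and thalamus, of which the other 13 summed to 253.4 and 245.1 CPM in SKF and 246.4 and 245.9 CPM in SKF+Aβ, so these groups overlapped. Such a sum is weighted to abundant genes. Of all 14 markers, Ppp1r1b included, 10 had a log2 fold change below 0 and 4 above 0 (median −0.41), and 1 had an unadjusted p under 0.05. Drd2 and Adora2a, which define striatal neurons, had between 5 and 33 counts in each of these 4 libraries. The receptor genes had low counts. Drd1 had 12 and 20 counts in SKF and 23 and 22 in SKF+Aβ, and Drd5 22 and 28 in SKF and 7 and 16 in SKF+Aβ, with adjusted p of 0.369 and 0.259. Crebbp (log2 fold change 0.13 ± 0.12 SE) and Ep300 (0.12 ± 0.14 SE), the genes of the acetyltransferases CBP and p300, did not pass (adjusted p = 0.539 and 0.651). Of 28 acetyltransferase and deacetylase genes, the deacetylase Sirt1 rose from 20.2 and 19.0 CPM in SKF to 38.7 and 31.5 CPM in SKF+Aβ (log2 fold change 0.84, adjusted p = 0.0355). Hdac11 fell from 130.2 and 132.8 CPM to 84.7 and 85.9 CPM (log2 fold change −0.63, adjusted p = 0.0492).

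A few receptor and channel genes of the synapse rose. Gria2, the AMPA receptor subunit that makes the channel impermeable to calcium, had 753.1 and 852.3 CPM in SKF and 1353 and 1305 CPM in SKF+Aβ (log2 fold change 0.73 ± 0.14 SE, adjusted p = 0.0355). Grik2, a kainate receptor subunit, rose by 0.61 (adjusted p = 0.0421). They were the 2 that passed among 37 glutamate receptor and scaffold genes, whose median was −0.08, and between −0.18 and −0.01 without 1 of the 4 libraries. DESeq2 called 3 of the list higher and 3 lower, and the fit without either SKF+Aβ+CSP‐TTK21 library 3 higher and 2 lower. No gene of the list passed without either SKF+Aβ library, without SKF replicate 1 or without either SKF+Aβ+CSP library, or when only the 4 libraries were fitted. Gria3 (0.58, adjusted p = 0.0535) and Gria1 (0.35, adjusted p = 0.141) had positive fold changes that did not pass. The scaffold genes Shank1 (−0.66, adjusted p = 0.0858), Dlgap3 (−0.70, adjusted p = 0.0640) and Dlg4 (−0.31, adjusted p = 0.233), picked after their values were seen, did not pass either.

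Of 26 genes of GABA receptors and interneurons 2 rose. Gabra4, the α4 subunit of the GABA-A receptor, had 92.6 and 122.7 CPM in SKF and 221.1 and 168.1 CPM in SKF+Aβ (log2 fold change 0.85 ± 0.19 SE, adjusted p = 0.0433). The groups did not overlap in this gene. Of 12 genes whose symbol starts with Gabr, 11 had a fold change above 0, a grouping chosen after the values were seen. The interneuron genes Sst (−0.45), Cck (−0.51) and Pvalb (0.05) did not pass. Without SKF+Aβ replicate 2 the list's median moved from 0.20 to −0.02. Among ion channels, Kcnj3, a G protein-gated potassium channel, rose from 58.2 and 60.5 CPM to 94.7 and 94.0 CPM (log2 fold change 0.67, adjusted p = 0.0355). It was the 1 of 39 listed potassium channel genes that passed, of which 20 were below 0 (median −0.05). Kcnt2, outside the list, also rose (0.86). Of 79 genes whose symbol starts with Kcn, a grouping chosen after the values were seen, 2 rose and 46 were below 0 (median −0.13). Cacna2d1, an auxiliary subunit of calcium channels, rose from 216.8 and 199.2 CPM to 349.1 and 301.8 CPM (log2 fold change 0.65, adjusted p = 0.0467), the 1 that passed of 23 sodium and calcium channel genes, whose median was 0.16. Neither list had a call without any 1 of the 4 compared libraries or when only these 4 were fitted. None of the 30 tested genes of vesicle release passed in edgeR (4 at an unadjusted p under 0.05), and DESeq2 called 1 lower. None of 28 plasticity kinases and phosphatases passed either (9 unadjusted), among which DESeq2 called 3 higher.

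Among the genes past the threshold, the largest rise was that of Mcts1, which acts with Denr in restarting translation after short reading frames. It had 6.91 and 8.81 CPM in SKF and 28.4 and 26.4 CPM in SKF+Aβ, a 3.48-fold higher level (log2 fold change 1.80 ± 0.23 SE, adjusted p = 0.0186). Denr had a log2 fold change of 0.23 (adjusted p = 0.359). Of 34 translation factors, Eif4a2, an RNA helicase of initiation, also rose, from 332.9 and 373.7 CPM to 506.6 and 555.9 CPM (log2 fold change 0.59, adjusted p = 0.0431). Eif6, which keeps the large ribosomal subunit from joining too early, fell from 71.6 and 61.1 CPM to 40.1 and 38.6 CPM (log2 fold change −0.75, adjusted p = 0.0370).

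Of 65 tested rows of cytosolic ribosomal proteins, 56 had a log2 fold change below 0, and the median was −0.33. Of these 4 fell, Rpl13a (log2 fold change −0.76), Rpl18 (−0.70), Rps15 (−0.69) and Rpsa (−0.61), and 0 rose. Rpl13a had 427.9 and 437.3 CPM in SKF and 233.1 and 276.3 CPM in SKF+Aβ (adjusted p = 0.0355). Ribosomal protein genes have many processed copies in the genome, which can share reads. The list's median was −0.50 and −0.14 without SKF replicates 1 and 2, and −0.19 and −0.47 without SKF+Aβ replicates 1 and 2. When only the 4 libraries were fitted, 0 of its genes passed.

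**Figure D3:**
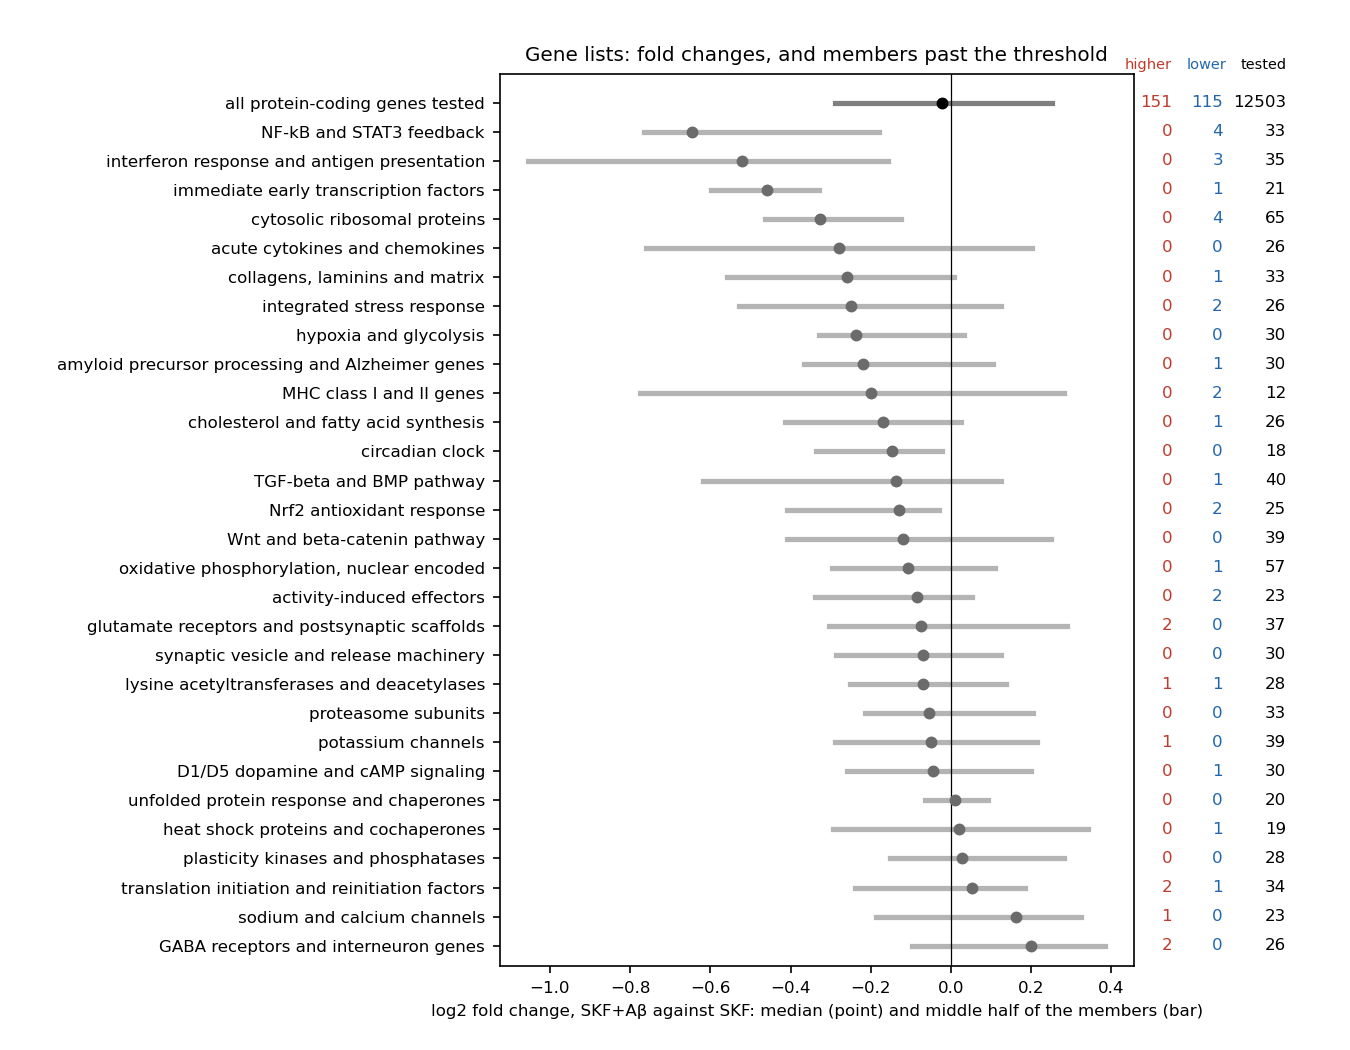
Median log2 fold change of SKF+Aβ against SKF (points) and interquartile range of the members (bars) for 29 gene lists, with the number of members higher, lower and tested at the right. The lists of NF-κB and STAT3 feedback and of interferon response have the lowest medians of those plotted, −0.65 and −0.52, and GABA receptors the highest, 0.20.

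Among stress pathways, the integrated stress response had 2 lower genes of 26. Atf5, a transcription factor translated under stress, had 43.8 and 57.4 CPM in SKF and 20.0 and 23.6 CPM in the libraries labelled SKF+Aβ (log2 fold change −1.22 ± 0.18 SE, adjusted p = 0.0230). Phgdh, the first enzyme of serine synthesis, had 57.5 and 74.0 CPM in SKF and 39.5 and 39.9 CPM in SKF+Aβ (log2 fold change −0.73, adjusted p = 0.0415). Atf4 (−0.35, adjusted p = 0.177) and Ddit3 (−0.13, adjusted p = 0.743) did not pass. None of the 20 tested genes of the unfolded protein response passed in edgeR (3 at an unadjusted p under 0.05, and 1 in DESeq2). No call was made either for 33 proteasome subunits (8 unadjusted, 2 in DESeq2), 30 genes of hypoxia and glycolysis (6 unadjusted, 0 in DESeq2) and 18 clock genes (5 unadjusted, 1 in DESeq2). Bag3, a cochaperone of HSP70 that directs damaged proteins to autophagy, was the 1 of 19 listed heat shock genes that fell (79.4 and 80.6 CPM in SKF, 48.1 and 40.7 CPM in SKF+Aβ, log2 fold change −0.85, adjusted p = 0.0326). DESeq2 called 2 of this list higher and 2 lower. Hspbp1 (−0.80), a cochaperone outside the list, also fell. Of 25 antioxidant genes, Ftl1, the ferritin light chain that stores iron, fell from 154.7 and 172.5 CPM to 81.0 and 95.2 CPM (log2 fold change −0.89 ± 0.13 SE, adjusted p = 0.0230). Mt3, a brain metallothionein, fell by 0.71 on the log2 scale (adjusted p = 0.0444). Ftl1 passed in 9 of the 10 fits that left out a library, the exception being the fit without SKF+Aβ replicate 1, and did not pass when only the 4 libraries were fitted.

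Tgfb1, the anti-inflammatory cytokine TGF-β1, was the 1 gene of 40 in the TGF-β and BMP pathway that passed. It had 21.8 and 27.0 CPM in SKF and 9.64 and 11.2 CPM in SKF+Aβ (log2 fold change −1.23 ± 0.24 SE, adjusted p = 0.0359). It passed in 4 of the 10 fits that left out a library and not when only the 4 libraries were fitted, and its direction rests on the labels, which no gene checks. The list of the Wnt pathway gave 0 calls in 39 tested genes in edgeR and in DESeq2 (4 at an unadjusted p under 0.05). Wnt3 was at 0.02 ± 0.53 (SE) and Wnt10b at 0.35 ± 0.49 (SE), both under 3 CPM in the 4 libraries. Nkd1 (−1.01), a feedback inhibitor of this pathway, and its target Ccnd1 (−0.77) are outside the list and fell past the threshold. Apoe, the lipid carrier of astrocytes and the main genetic risk factor of late-onset Alzheimer's disease, was the only 1 of 30 genes of amyloid processing and Alzheimer's disease that passed in edgeR. DESeq2 called 4 of this list lower. Apoe had 2069 and 2574 CPM in SKF and 1117 and 1372 CPM in SKF+Aβ (log2 fold change −0.90 ± 0.20 SE, adjusted p = 0.0431). App itself had a log2 fold change of −0.21 ± 0.14 (SE, adjusted p = 0.388), Clu one of −0.44 (adjusted p = 0.102) and Trem2 one of −0.23 (adjusted p = 0.826). Srebf1, the regulator of fatty acid synthesis, fell by 0.74 (adjusted p = 0.0485), 1 of 26 lipid synthesis genes. Lamb2, a laminin chain, was the 1 of 33 listed matrix genes that fell (−0.71, adjusted p = 0.0376). Col11a2 (−1) and Col16a1 (−0.80), outside that list, fell too. Of 33 tested collagen genes, grouped by symbol after the values were seen, these 2 fell and 0 rose. Ndufb7 was the 1 of 57 rows of oxidative phosphorylation that fell (−0.87, adjusted p = 0.0444).

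The levels of cell type markers were set beside these results. Sox10, the transcription factor of the oligodendrocyte lineage, fell from 60.0 and 68.1 CPM in SKF to 36.6 and 27.6 CPM in SKF+Aβ (log2 fold change −0.996 ± 0.21 SE, adjusted p = 0.0416). It was the 1 that passed among 19 oligodendrocyte and myelin genes, of which 16 were below 0 (median −0.39), and their summed level was 17874 and 26270 CPM in SKF and 17531 and 12331 CPM in SKF+Aβ. DESeq2 called 6 of the 19 lower, and the median was −0.14 without SKF replicate 2 and −0.67 without SKF replicate 1. Prr18, a gene outside that list, fell from 22.4 and 28.0 CPM to 8.66 and 7.90 CPM (log2 fold change −1.60 ± 0.22 SE, adjusted p = 0.0230). Bcas1, an oligodendrocyte gene that is also outside the list, fell too (−0.72). Astrocyte markers gave 0 calls in 15 genes in edgeR (7 at an unadjusted p under 0.05, 2 in DESeq2, median −0.30, and −0.18 without SKF replicate 2), and summed to 6933 and 9062 CPM in SKF and 6762 and 7008 CPM in SKF+Aβ. Microglial markers gave 0 calls in 16 genes in edgeR (3 unadjusted, 1 in DESeq2, median −0.26, but 0.27 without SKF replicate 2), and summed to 247.9 and 414.5 CPM in SKF and 245.1 and 321.6 CPM in SKF+Aβ. The groups overlapped for astrocytes and microglia. They did not for oligodendrocytes, though the nearest libraries differed by less than the replicates of either group. Dentate granule cell markers gave 0 calls in 7 genes in edgeR (1 unadjusted, 0 in DESeq2), but without overlap they summed to 341.2 and 384.2 CPM in SKF and 462.5 and 444.6 CPM in SKF+Aβ. The 6 CA1 markers summed to 421.4 and 603.8 CPM in SKF and 672.0 and 456.5 CPM in SKF+Aβ, and the 6 CA3 markers to 400.9 and 325.5 CPM in SKF and 196.0 and 362.2 CPM in SKF+Aβ. The groups overlapped in both, and within each group the library with more CA1 marker mRNA had less of CA3. The 6 CA2 markers did not overlap, with 264.5 and 260.2 CPM in SKF and 233.4 and 244.9 CPM in SKF+Aβ (median −0.03, 0 calls in edgeR). General neuronal markers overlapped, with 10053 and 9639 CPM in SKF and 8792 and 10669 CPM in SKF+Aβ. Endothelial markers gave 0 calls in 15 genes in edgeR (3 unadjusted, 0 in DESeq2) and had a median of −0.65, which was 0.19 without SKF replicate 1, the library on which the NF-κB and interferon medians also depended. They summed to 370.2 and 178.9 CPM in SKF and 237.6 and 181.5 CPM in SKF+Aβ, and the groups overlapped. Mural markers gave 0 calls in 12 genes in edgeR (2 unadjusted, 0 in DESeq2, median −0.26, and −0.53 and −0.12 without SKF+Aβ replicates 1 and 2), and without overlap they summed to 179.6 and 173.1 CPM in SKF and 158.4 and 139.5 CPM in SKF+Aβ. In such tissue, fewer cells of a type and less mRNA per cell cannot be told apart, and the part of cell composition and subfield in the changes of Apoe, Sox10 and the immune genes was not tested.

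**Figure D4:**
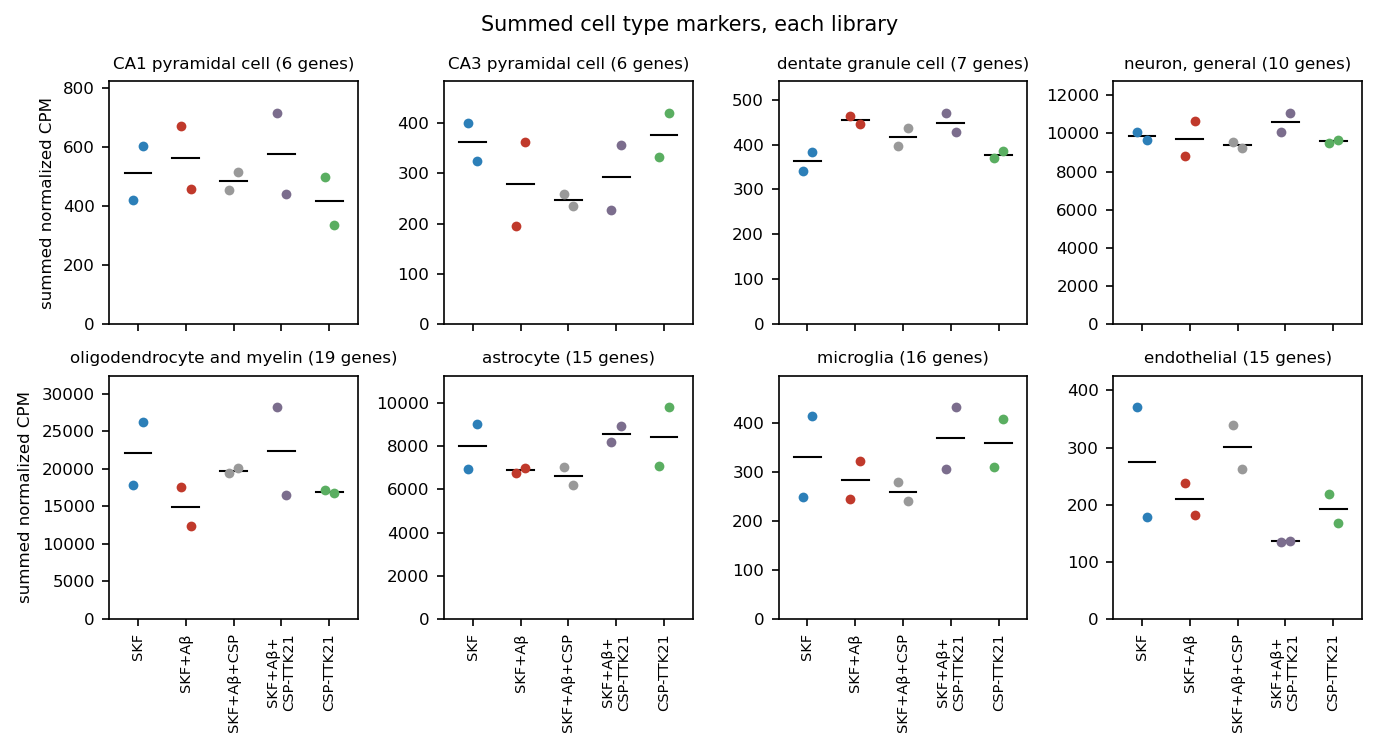
Summed normalized CPM of 8 marker lists (vertical axes, from 0) in each of the 10 libraries, as points by group with a line at the mean of the 2 libraries. Dentate granule cell markers are higher and oligodendrocyte markers lower in both SKF+Aβ libraries than in both SKF libraries, and the other 6 lists overlap.

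Outside the lists, the remaining genes at the 2 ends of the ranking had mixed functions. Pak2, a kinase that controls actin, had 4.98 and 6.41 CPM in SKF and 1.82 and 1.64 CPM in SKF+Aβ (log2 fold change −1.71, adjusted p = 0.0422). Further genes that fell were Marcksl1 (−1.36), Cdc42ep1 (−1.22) and Myh14 (−1.08), a nonmuscle myosin heavy chain at 87.5 and 78.2 CPM in SKF and 39.7 and 38.9 CPM in SKF+Aβ. Scand1 (−1.36), Stac2 (−1.25), Ier5l (−1.49), Fam43b (−1.28) and Fbxo2 (−0.93), a ubiquitin ligase subunit that recognizes glycoproteins, fell as well. At the other end, Rnf138, a ubiquitin ligase of DNA repair, had 2.07 and 3.07 CPM in SKF and 9.22 and 7.45 CPM in SKF+Aβ (log2 fold change 1.69 ± 0.30 SE, adjusted p = 0.0330). Cox20, an assembly factor of cytochrome c oxidase, had 20.9 and 27.1 CPM in SKF and 46.9 and 56.8 CPM in SKF+Aβ (log2 fold change 1.11, adjusted p = 0.0326). Naa16 (1.21), of the N-terminal acetyltransferase complex, Bbs5 (1.16), of the ciliary BBSome, Dock11 (1.13), an activator of Cdc42, Ppwd1 (1.12), Tigd2 (1.13) and Vom2r44 (1.12) rose as well. Ranbp2, a nucleoporin, had 325.4 and 334.0 CPM in SKF and 589.2 and 596.5 CPM in SKF+Aβ, and Zmym2, a zinc finger protein, 109.1 and 107.7 CPM and 229.2 and 190.6 CPM.

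Zinc finger genes were grouped by symbol after the calls were seen. Zfp933 (log2 fold change 1.43), Zfp51 (1.40) and Zfp40 (1.298) were among the 12 highest. Of 242 tested genes whose symbol starts with Zfp, 17 rose and 1 fell, with a median of 0.18, where 1.21% of all tested genes rose. Many of them have close copies in the genome, so reads may be shared. Further groups were picked from the calls after their values were seen and carry no weight of their own. They include splicing and RNA export factors (Sf3b1 0.59, Prpf39 0.99, Matr3 0.66, Thoc2 0.83), ubiquitin ligases (Ube3a 0.61, Cul3 0.53, Cul4b 0.76) and proteasome-bound Usp14 (0.82) and Psme4 (0.85), and chromosome structure genes (Smc2 0.71, Smc6 0.67, Atrx 0.68). Neuronal membrane proteins were also among them, with Lgi1 (0.76), Lrrtm4 (0.76), Npy1r (0.93), Il1rapl1 (1.09) and Ptchd1 (1.10). Promoters of the lower genes had a median GC content of 64.7%, those of the higher genes 62% and those of all tested genes 60.8%. The 2070 promoters of lowest GC content held 25 higher and 6 lower genes, and the 1997 of highest GC content 27 higher and 31 lower, and its part in the results was not tested.

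The other groups give the context of these levels, each against the same SKF libraries. By the same rule 0 protein-coding genes were called for CSP‐TTK21 alone and 0 for SKF+Aβ+CSP‐TTK21, whereas 1, Ppp1r1b, was lower for SKF+Aβ+CSP (40.8 and 33.0 CPM). At an unadjusted p under 0.05, edgeR gave 961, 2507 and 2434 genes in the same order, against 2900 for SKF+Aβ, and whether these groups differ in their distance from SKF was not tested. Mcts1 was at 20.6 and 18.8 CPM with CSP added, at 26.6 and 16.8 CPM with CSP‐TTK21 added to SKF+Aβ, and at 16.3 and 15.5 CPM in CSP‐TTK21 alone, all above the SKF libraries. Irf1 was at 114.2 and 83.1 CPM, 75.7 and 99.9 CPM, and 104.0 and 83.5 CPM in the order of Mcts1, all between the 2 compared groups. Apoe was at 1338 and 1062 CPM, 1432 and 2118 CPM, and 1774 and 2149 CPM. Gria2 was at 1092 and 1298 CPM, 1308 and 1072 CPM, and 944.1 and 962.0 CPM. In CSP‐TTK21 alone, which received neither SKF nor Aβ, the levels of Mcts1, Irf1 and Gria2 lay between those of SKF and SKF+Aβ in both libraries.

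**Figure D5:**
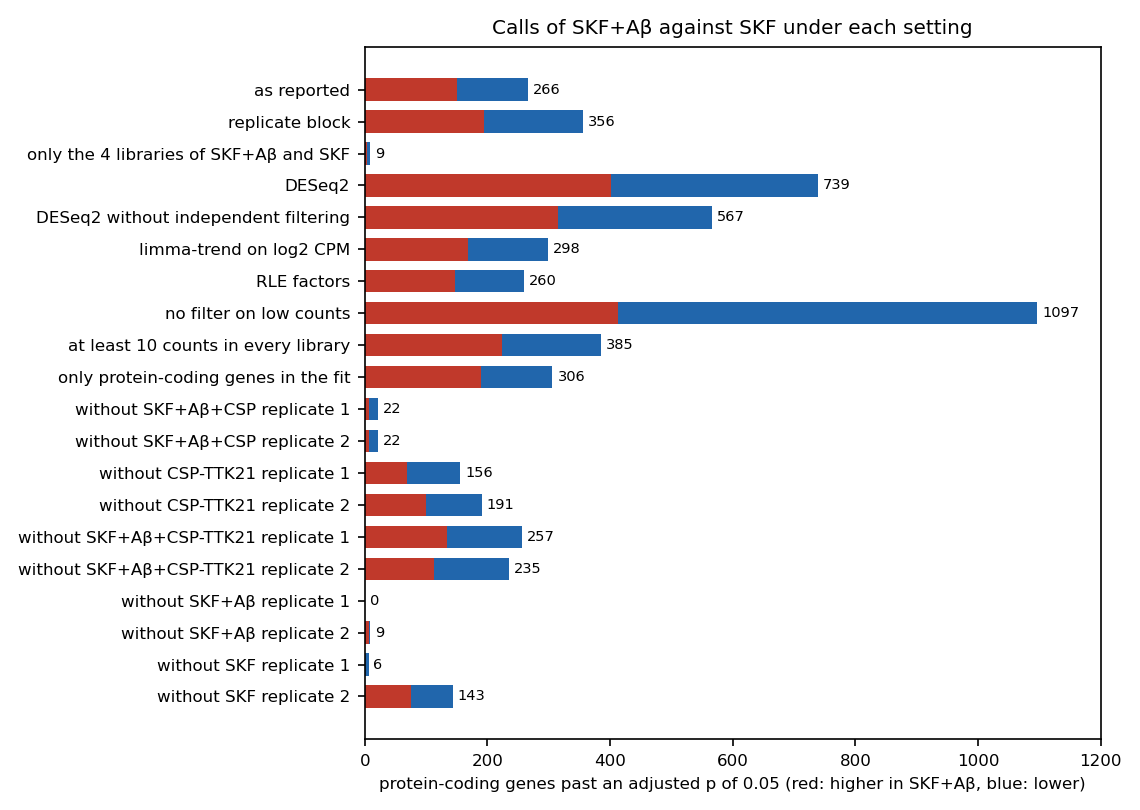
Number of protein-coding genes past an adjusted p of 0.05 in SKF+Aβ against SKF, higher in red and lower in blue, as reported and under each other setting. The count is 266 as reported, ranges from 0 to 257 when 1 library is left out and reaches 1097 without a filter on low counts.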

How the data were processed

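RNA-seq of the CA1 region was analysed for 4 libraries, 2 SKF and 2 SKF+Aβ, within a fit of all 10. Values are raw counts for each rat Ensembl gene and library, as the authors deposited them, neither normalized nor pooled. Their methods describe a stranded ribosome-depleted kit, Trim Galore, Samtools duplicate removal, TopHat2 and Cufflinks. They name Rnor_6.0 as the genome that was indexed and mm10 as the assembly to which TopHat2 aligned the reads. The submitters' processing notes name STAR, RSEM, HISAT2, Salmon and the human build GRCh38. Which program made the counts, and its use of strand, is not given in the sources used here, so overlapping and duplicated genes are uncertain.

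Groups and replicate numbers came from the sample labels. Of 32545 genes, 16809 matched the RefSeq table of GRCr8 by symbol and 16336 were protein-coding. Among calls of any type, 46 had no type by symbol and are not reported. A few items are not reported here. The test was the quasi-likelihood test of edgeR 4.0.16 (R 4.3.3). filterByExpr kept 15032 genes, factors were TMM, and a quasi-likelihood fit had 1 mean per group (common biological coefficient of variation 0.136). Benjamini-Hochberg adjustment ran over all 15032 genes and calls were made at 0.05. SE is the fold change divided by the square root of its F. All p-values measure the spread between libraries, which may be partly technical. A value of 3 counts as the limit of a count of 0 covers counting error only. The script was tested on simulated data.

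The members and gene lists were chosen with earlier results of these data known. Lists were described by counts and medians and not tested. Named genes were the 12 highest and 12 lowest fold changes among calls with at least 2 CPM and groups that did not overlap, the 10 lowest adjusted p, list members past the threshold (else the 2 of lowest p) and 9 preset genes; others were named after their values were seen. Uncharacterized loci were left out. Motif and GC shares used promoters matched by symbol, for sets with at least 80% matched. Alternatives used a replicate block, the 4 libraries alone, DESeq2 1.42.0, limma 3.58.1, RLE factors, other filters, only protein-coding genes, and each library left out. DESeq2 without independent filtering and typing by older symbols were added after the data were seen.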

Additional observations from a re-analysis of the deposited data

How the results depend on the processing

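The number of protein-coding genes past the threshold was 266 as reported. It was 9 with only the 4 compared libraries, 739 with DESeq2 (251 of the 266 shared), 567 with DESeq2 without independent filtering, 1097 without a filter on low counts, 6 with the added fold limit and from 0 to 257 when 1 library was left out. The split also moved without the filter, to 413 higher and 684 lower, and with only protein-coding genes in the fit, to 190 higher and 116 lower. With the fold limit, 6 genes became 11 with the replicate block, 3 with DESeq2, 12 with DESeq2 without independent filtering, 47 without the filter and from 0 to 21 when 1 library was left out. The replicate block gave 356 genes, 265 of them shared, and same-numbered deviations correlated at 0.145 over 2 pairs, too few to show pairing. Limma called 298 genes, RLE factors 260, the minimum of 10 counts 385 and typing by older symbols 279. No gene named as past the threshold reversed its direction under these settings, while the medians of 21 of 44 gene lists changed sign without 1 of the 4 compared libraries. The lone library in a fit without its partner was assumed to vary like the other groups, and the cause of these shifts was not tested. Depth limits genes of few counts, such as Wnt3, with between 7 and 15 counts in the 4 libraries.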
